A study of Mus musculus with 12 samples.

Results

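The 6 arrays described here measured RNA of cultured mouse trigeminal ganglion (TG) neurons after transfection with miR-34a (3 arrays) or with scramble miRNAs (3 arrays), out of 12 arrays in the series. TG neurons carry touch, temperature and pain from the head to the brain, and they were kept as primary cultures on laminin. The arrays were chosen by their titles. The titles of miR-34a 1 and 2 and of scramble 1 and 2 end in the same suffix, called suffix A here, and these 4 arrays give the main comparison. The titles of miR-34a 3, which has no suffix, and of scramble 3, which has another suffix and is numbered 1 there, do not match. These 2 arrays enter only the comparison of all 3 against 3 arrays and a comparison with each other, 1 against 1. The labels do not say what a suffix stands for, which arm or form of miR-34a was used, what the scramble sequences were, or the strain, sex and age of the mice. Nothing in the labels shows that the arrays of a group stand for different cultures or mice. A p-value here reflects the spread among the arrays fitted alone, possibly a technical one. For 3 against 3 the fit took in all 12 arrays of the series. The series title places the work in neural reprogramming by head and neck cancer, and the comparison asks which transcripts of the neurons differ after miR-34a.

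A miRNA guides an Argonaute protein to transcripts that pair with its seed, the bases near its 5′ end, and such transcripts are translated less and decay faster. miR-34a is made from a gene that p53 switches on, and in many cell types its targets include genes of the cell cycle, of survival and of Notch signalling. Levels of reported targets are given below for each array.

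The mature sequences that RefSeq (GRCm38.p6) gives for miR-34a, and for the other mouse miRNAs of the table used here with the same seed, are shown because a target of 1 of them may be shared by all. The capitals mark bases 2 to 8, the seed, and 4 of 1738 mature entries in the table carry it. miR-34a-5p lies at chr4:150068473-150068494 on the plus strand, and miR-34a-3p, the other arm of the same hairpin, has another seed.
miR-34a-5p: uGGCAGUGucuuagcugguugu
miR-34b-5p: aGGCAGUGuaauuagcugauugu
miR-449a-5p: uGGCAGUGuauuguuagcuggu
miR-449c-5p: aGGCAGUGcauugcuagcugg
miR-34a-3p: aAUCAGCAaguauacugcccu
No probe of the array was paired with the miR-34a gene itself, so how much miR-34a the cells held was not measured here.

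The cultures held several cell types, and the marker levels of the suffix A arrays were close in both groups while those of the third arrays were not. Each array was checked with lists of marker genes, summarised as the median log2 signal of the list. Pan-neuronal genes stood at 13.44 and 13.22 in miR-34a 1 and 2, against 13.13 and 13.54 in scramble 1 and 2, and at 9.78 in miR-34a 3 against 12.16 in scramble 3. Tubb3, the tubulin of neurons, was at 14.87, 14.80 and 10.15 in miR-34a 1 to 3 and at 14.51, 15.18 and 12.95 in scramble 1 to 3. The label of TG neurons is thus met by neuronal markers in all 6 arrays, least so in miR-34a 3. Sensory neuron genes stood at 9.39 and 9.28 in miR-34a 1 and 2, against 9.31 and 9.43 in scramble 1 and 2, and at 6.50 in miR-34a 3 against 7.61 in scramble 3.

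Markers of other cells were measured in the same arrays. Macrophage markers stood at 9.41 and 8.96 in miR-34a 1 and 2, against 9.10 and 9.06 in scramble 1 and 2, and near the floor in the third arrays (4.93 in miR-34a 3 and 4.99 in scramble 3). The floor, 4.94, is the signal that 95% of 1414 probes for olfactory and vomeronasal receptors, genes used by smell-sensing cells of the nose, stay under in the suffix A arrays. Schwann cell markers, mostly genes of the myelin sheath, were at 11.30 in miR-34a 3 against 7.91 in scramble 3, and between 9.28 and 9.96 in the 4 suffix A arrays. Endothelial markers were at 12.20 in miR-34a 3 and 11.52 in scramble 3, against 9.79 to 10.30 in the suffix A arrays. Prl, the pituitary hormone prolactin, was at 4.01 in miR-34a 3 against 14.92 in scramble 3, and at 4.83 or lower in the suffix A arrays. Eif2s3y, a gene of the Y chromosome, was at 8.53 in miR-34a 3 and at 2.93 or lower in the other 5 arrays. The third arrays therefore stand apart from the suffix A arrays and from each other, so the comparisons with and without them are kept apart below. In bulk samples such as these, fewer cells of a type and less RNA per cell cannot be told apart.

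**Figure D1:**
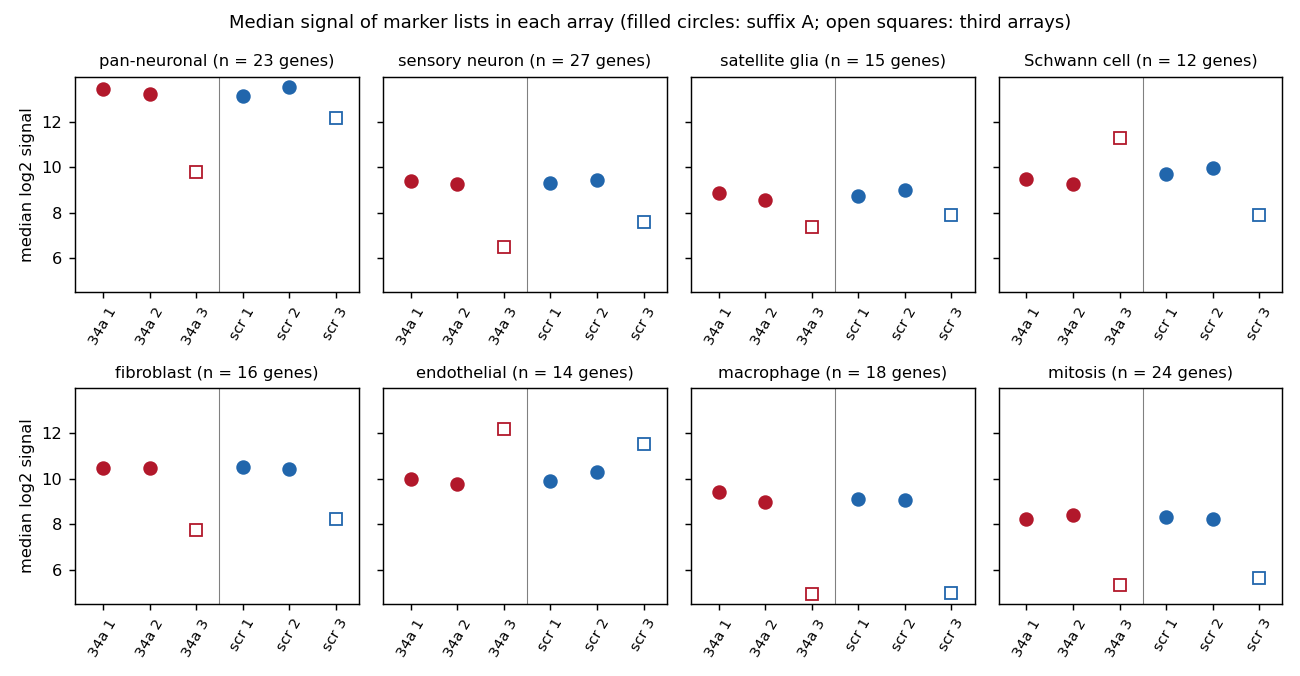
Median log2 signal of 8 marker gene lists (y axis) in each of the 3 miR-34a arrays (34a, red, left) and the 3 scramble arrays (scr, blue, right); n is the number of genes measured per list. The 4 filled circles of suffix A lie close together in each panel, and the open squares of the third arrays lie away from them, as for pan-neuronal genes at 9.78 in miR-34a 3 and 12.16 in scramble 3.

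In the suffix A arrays the pairs across groups differed more than the 2 miR-34a arrays did from each other and less than the 2 scramble arrays did. A difference of over 2-fold was found in 1.34% of 19572 probes between miR-34a 1 and 2 and in 2.41% between scramble 1 and 2. The 4 pairs of a miR-34a and a scramble array differed by that much in 1.55% to 1.84% of probes. By contrast 19.7% and 19.6% of probes differed over 2-fold between miR-34a 3 and miR-34a 1 or 2, and 12.8% and 15.1% between scramble 3 and scramble 1 or 2. These shares are a description of pairs of arrays, without a test.

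With 2 miR-34a arrays against 2 scramble arrays, 0 of 19572 probes were called at an adjusted p under 0.05 in limma, a linear model that shares the estimate of the spread among probes (0% called), and the smallest adjusted p was 0.997. At an unadjusted p under 0.05 limma gave 762 probes (3.89%). Differences are given as miR-34a minus scramble on the log2 scale, where 1 is a 2-fold difference. Their median over all named probes was −0.005, their SD was 0.27, and 98% of them lay between −0.68 and 0.64. For 89.7% of probes the 95% confidence interval lay within a 2-fold difference in either direction. Smaller differences are not shown to be absent, since the interval of the median probe reached 0.53 to either side. An exact permutation test of single values could not go below p = 0.333 with 2 against 2 arrays.

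The 2 miR-34a arrays lay both above or both below the 2 scramble arrays in 30.0% of probes, with 14.3% higher and 15.7% lower after miR-34a. This share is the background for the counts of genes without overlap that follow.

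**Figure D2:**
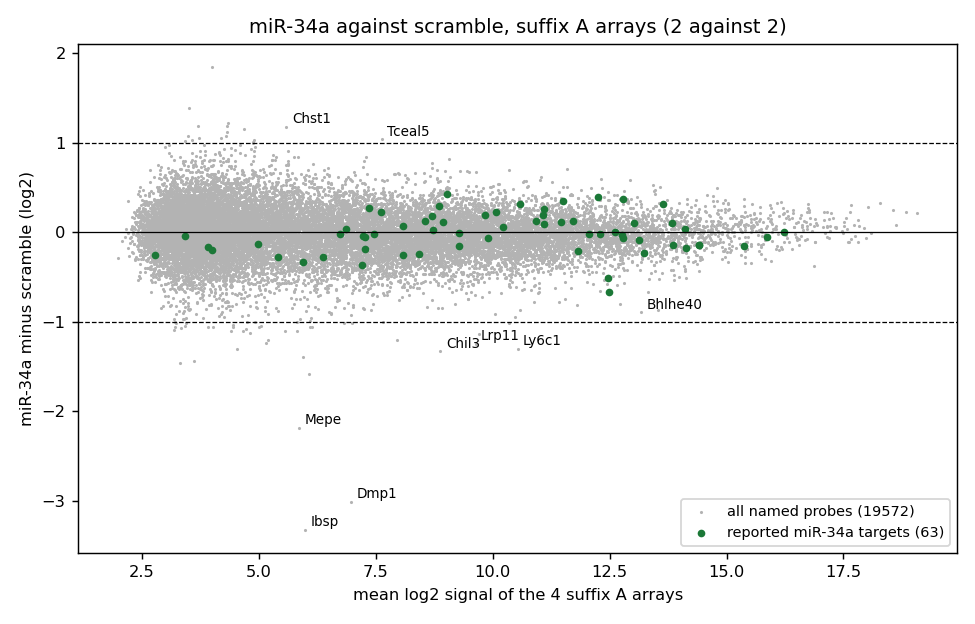
Difference between miR-34a and scramble in the suffix A arrays (y axis, log2, 2 against 2) against the mean log2 signal of the 4 arrays (x axis), for 19572 named probes (grey) and 63 reported miR-34a targets (green). Dashed lines mark 2-fold; the targets lie between −0.67 and 0.43, and the lowest points above a signal of 5 are Ibsp, Dmp1 and Mepe.

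No transcript reported by other studies as a direct target of miR-34a passed the test, and nearly as many were higher as lower. Of 70 listed targets 63 were measured, and 59 of these stood above the floor of the array. In the suffix A comparison 0 rose and 0 fell by adjusted p, and 0 had an unadjusted p under 0.05 in limma, against 3.89% of all probes. In the mean 34 were lower, 27 higher and 2 equal. Thus 54.0% of the targets were lower, against 50.9% of all named probes and 53.7% of those above the floor. The median difference of the targets was −0.015, against −0.005 over all named probes and −0.025 over those above the floor. Leaving out 1 array at a time moved the median of the targets between −0.10 and 0.13. The arrays did not overlap for 10 that were higher and 11 that were lower, 33.3% of the list against 30.0% of all probes. The 95% intervals of 60 of the 63 reached no 2-fold fall, and those of 39 reached no 1.5-fold fall. In all 63 intervals 0 was included.

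The cell cycle targets come first. Cdk6, a kinase that drives cells into S phase, had signals of 10.09 and 10.43 in miR-34a 1 and 2 and of 10.20 in both scramble 1 and 2. The miR-34a arrays lay on either side of the scramble arrays, and the difference was 0.06 (95% interval −0.45 to 0.57). Cdk4, the related kinase, differed by 0.10 (−0.44 to 0.64), and E2f3, a transcription factor of S phase genes, by 0.07 (−0.48 to 0.61). Myc, a growth-promoting transcription factor, was among the brightest targets, at 15.43 and 15.16 in miR-34a 1 and 2 against 15.27 and 15.62 in scramble 1 and 2. Its difference was −0.15 (−0.68 to 0.38).

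Sirt1, Bcl2 and Ldha, targets in survival and metabolism, also overlapped between the groups. Sirt1, a deacetylase that acts on p53, had signals of 11.10 and 10.87 in miR-34a 1 and 2 and of 10.73 and 10.98 in scramble 1 and 2, a difference of 0.13 (−0.38 to 0.64). Bcl2, which blocks cell death at mitochondria, differed by 0.11 (−0.42 to 0.64). Ldha, a subunit of lactate dehydrogenase, had equal means, with an interval of −0.49 to 0.49. For each of these 3 genes the interval leaves out both a 2-fold rise and a 2-fold fall.

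Among receptors and their ligands, Met, the receptor of hepatocyte growth factor, was at 11.62 and 11.75 in miR-34a 1 and 2 against 11.21 and 11.46 in scramble 1 and 2. Both miR-34a arrays were above both scramble arrays, and the difference of 0.35 had an interval of −0.16 to 0.86. Met was also higher in miR-34a 3 (11.91) than in scramble 3 (11.14), so that the 3 miR-34a arrays lay above the 3 scramble arrays (0.49, −0.08 to 1.06; adjusted p = 0.999). Axl, a receptor tyrosine kinase, differed by −0.15 (−0.64 to 0.35) in suffix A and by 0.22 (−0.86 to 1.31) in all 6 arrays. Csf1r, the receptor through which macrophages survive, differed by 0.30 (−0.23 to 0.82) in suffix A, and it was at 4.74 in miR-34a 3 against 4.24 in scramble 3, as low as the other macrophage markers there.

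The targets with the largest differences in suffix A did not pass the test either. Rras, a small GTPase, had the lowest value, −0.67 (−1.59 to 0.26). It was at 12.29 and 12.02 in miR-34a 1 and 2 against 12.00 and 13.64 in scramble 1 and 2, so that only scramble 2 was high. Ppp1r11, an inhibitor of protein phosphatase 1, was at 12.18 and 12.26 in miR-34a 1 and 2 against 12.41 and 13.05 in scramble 1 and 2, without overlap (−0.51, −1.09 to 0.07). Cd274, which encodes the immune checkpoint ligand PD-L1, was at 7.17 and 6.89 in miR-34a 1 and 2 against 7.31 and 7.49 in scramble 1 and 2 (−0.37, −0.88 to 0.14). At the upper end Tgif2, a repressor of TGF-beta signalling, had the highest value, 0.43 (−0.41 to 1.27), with overlap. It was at 8.55 and 9.94 in miR-34a 1 and 2 against 8.98 and 8.65 in scramble 1 and 2, so that only miR-34a 2 was high. Next came Acsl4, which links CoA to arachidonic acid, with 0.40 (−0.10 to 0.89), and Fndc3b with 0.38 (−0.13 to 0.88), both without overlap.

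**Figure D3:**
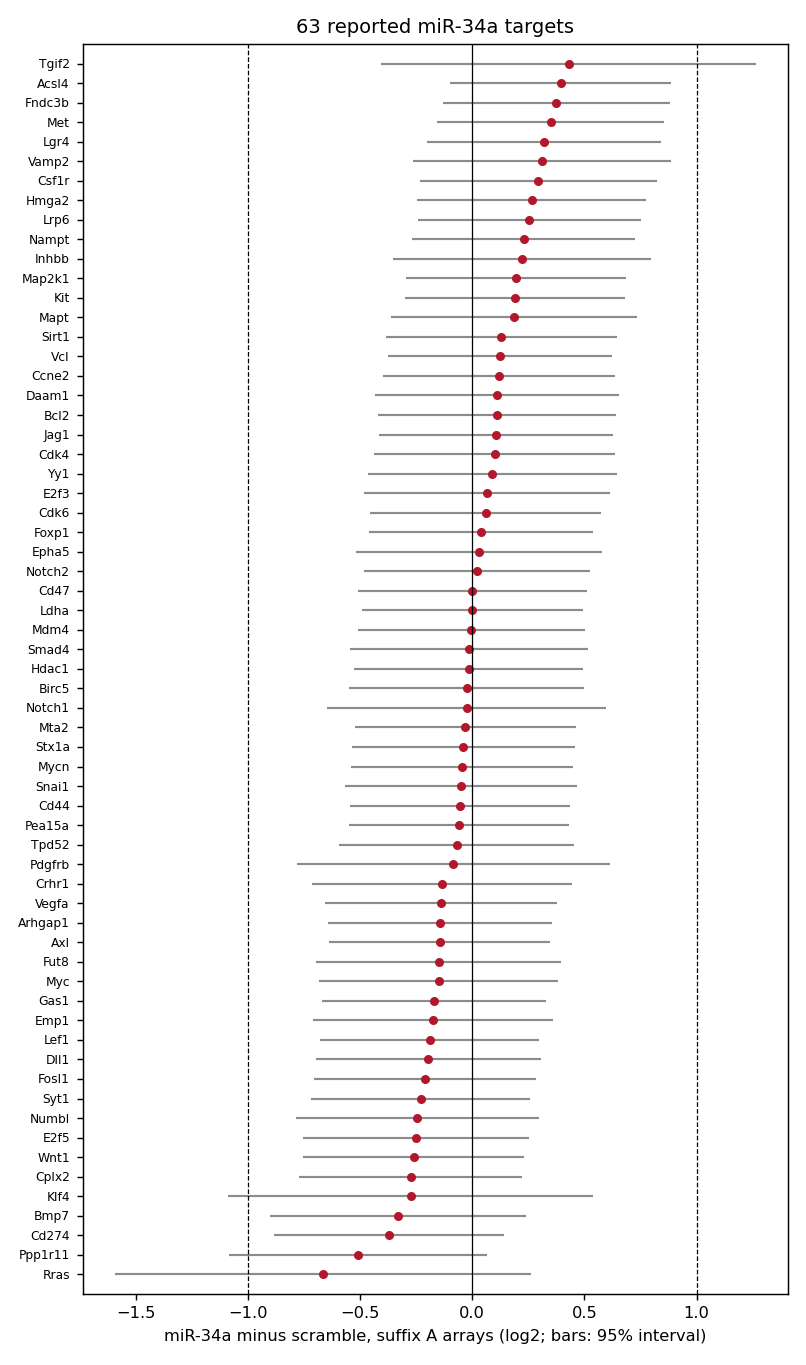
Difference between miR-34a and scramble in the suffix A arrays (x axis, log2) for 63 reported miR-34a targets (y axis, ordered by the difference), with bars for the 95% confidence interval from limma and dashed lines at 2-fold. All 63 bars cross 0, and 60 of them end above the 2-fold fall.

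Cd274 was the target whose value moved most between the comparisons among those without overlap in both. It was at 6.59 in miR-34a 3 against 8.85 in scramble 3, and over all 6 arrays it differed by −1.0 (limma adjusted p = 0.999). Over all 3 against 3 arrays the targets had a median of −0.08, with 0 called. The median was 0.04 for all named probes and 0.06 for those above the floor. Of 63 targets 4 were higher without overlap and 3 lower, against 3.49% and 2.31% of all probes. Both are larger shares of the list than of all probes, without a test. The 4 were Met, Fndc3b, Hmga2 and Lrp6, and the 3 were Cd274, Cplx2 and Wnt1, of which Wnt1 stood below the floor. Fndc3b, at 13.10, 12.84 and 13.04 in miR-34a 1 to 3 against 12.65, 12.54 and 12.40 in scramble 1 to 3, differed by 0.46 over 6 arrays (adjusted p = 0.999). The list has no probe analysed here for Ccnd1, Acsl1, Areg, Ctnnb1, Pdgfra, Ppp1r10 and Tcf7.

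Notch signalling passes between touching cells when a ligand of the Jagged or Delta family binds a Notch receptor, whose inner part is then cut free and switches on Hes and Hey genes. All 25 listed genes were measured, 22 above the floor, and 0 were called. Their median difference in suffix A was −0.03, with 5 higher and 5 lower without overlap (40.0% against 30.0% of all probes). Notch1 differed by −0.03 (−0.65 to 0.60) and Notch2 by 0.02 (−0.48 to 0.52). Jag1, a ligand and reported miR-34a target, was at 13.25 and 12.88 in miR-34a 1 and 2 against 12.91 and 13.01 in scramble 1 and 2 (0.11, −0.42 to 0.63), and at 13.81 in miR-34a 3 against 11.84 in scramble 3. Jag2, another ligand, had the lowest value at −0.55 (−1.15 to 0.05), and Dll4, the Delta ligand of endothelial cells, the highest at 0.45 (−0.06 to 0.95). Dll4 was at 8.66 in miR-34a 3 against 14.24 in scramble 3. Of the target genes of the pathway, Hes1 was at 7.59 in both miR-34a 1 and 2 against 7.87 and 7.88 in scramble 1 and 2, without overlap (−0.29), and Hey1 had equal means.

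Genes of the cell cycle, of p53 and of survival were near the median of all probes. Of 27 measured genes of the G1/S transition and DNA replication 0 were called, with a median of −0.10. Without overlap 0 were higher and 5 lower, 18.5% of the list against 30.0% of all probes. E2f2, a transcription factor of S phase genes, was at 5.22 and 5.97 in miR-34a 1 and 2 against 6.71 and 6.47 in scramble 1 and 2. Both miR-34a arrays were lower, with a difference of −0.995 (−1.61 to −0.38; adjusted p = 0.997). E2f2 was also lower in miR-34a 3 (3.03) than in scramble 3 (4.06), but the third arrays were both below each suffix A array. Of 24 mitotic genes 0 were called (median 0.01, 2 higher and 3 lower without overlap, 20.8% of the list). Of 27 p53 target genes 0 were called (median −0.02, 0 higher and 5 lower without overlap, 18.5% against 30.0% of all probes). Cdkn1a, the cell cycle inhibitor p21, was at 16.95 and 16.72 in miR-34a 1 and 2 against 16.74 and 16.75 in scramble 1 and 2. Of 17 genes of the Bcl2 family 0 were called (median −0.03, 0 higher and 5 lower without overlap, 29.4% of the list). Mcl1 was at −0.46 (−0.97 to 0.05).

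No gene of adrenergic or sensory identity passed the test. Of 18 measured adrenergic and sympathetic genes, 9 above the floor, 0 were called, and their median difference was −0.04. Th, the rate-limiting enzyme of catecholamine synthesis, was at 5.90 and 6.23 in miR-34a 1 and 2 against 5.98 and 6.56 in scramble 1 and 2, with overlap (−0.21, −0.79 to 0.38), and at 4.64 in miR-34a 3 against 5.44 in scramble 3. Dbh, which makes noradrenaline from dopamine, was below the floor, at 3.77 and 4.47 in miR-34a 1 and 2 against 4.67 and 4.77 in scramble 1 and 2 (−0.60, −1.19 to −0.01; adjusted p = 0.997). In the third arrays Dbh was at 5.19 in miR-34a 3 and 5.18 in scramble 3. Slc18a2, which loads monoamines into vesicles, was at 5.10, 5.37 and 5.61 in miR-34a 1 to 3 against 4.89, 4.51 and 4.93 in scramble 1 to 3. It was higher in all 3 miR-34a arrays, as were 3.49% of all probes (0.54, −0.00072 to 1.07, in suffix A). All 3 scramble signals of Slc18a2 lay under the floor of 4.94, and its miR-34a signals were not far above it.

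Sensory and synaptic genes gave the same picture. Of 27 sensory neuron genes 0 were called (median −0.03, 5 higher and 3 lower without overlap, 29.6% against 30.0% of all probes). Pou4f3 had the largest difference of the list, a fall of −0.60 (−1.09 to −0.11; limma adjusted p = 0.997). It was at 5.10 and 5.13 in miR-34a 1 and 2 against 5.79 and 5.64 in scramble 1 and 2, and at 4.93 in miR-34a 3 against 4.81 in scramble 3. Ret, the receptor for ligands of the GDNF family, was at 13.80 and 13.63 in miR-34a 1 and 2 against 13.11 and 13.37 in scramble 1 and 2 (0.48, −0.03 to 0.98). Scn10a, a sodium channel of pain-sensing neurons, differed by 0.36 (−0.18 to 0.90). Of 23 pan-neuronal genes 0 were called (median −0.05, 0 higher and 4 lower without overlap, 17.4% against 30.0% of all probes). Snap25, a protein of vesicle fusion, was at −0.32 (−0.82 to 0.18). Of 31 axon growth and guidance genes 0 were called, with 22 higher in the mean and a median of 0.12, and the 28 genes of nerve injury and regeneration had a median of 0.02.

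Proteins that make miRNAs and act with them were measured because a transfected miRNA uses them. Of 16 genes 0 were called, 14 were higher in the mean, and the median was 0.13. Ago2, the Argonaute protein that cuts target RNA, was at 12.12 and 11.90 in miR-34a 1 and 2 against 11.51 and 11.74 in scramble 1 and 2 (0.39, −0.13 to 0.90), and at 11.89 in miR-34a 3 against 11.26 in scramble 3. Drosha, the nuclear enzyme that releases miRNA hairpins, was at 12.23, 12.21 and 12.85 in miR-34a 1 to 3 against 11.96, 11.81 and 11.94 in scramble 1 to 3 (0.34, −0.16 to 0.83, in suffix A). Both were higher in each miR-34a array than in each scramble array, as were 3.49% of all probes. Dicer1, which cuts the hairpin in the cytoplasm, differed by 0.04 in suffix A, with overlap.

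Macrophage markers were lower in the mean for 11 of 18 genes in suffix A, with a median of −0.23, 2 higher and 7 lower without overlap (50.0% against 30.0% of all probes) and 0 called. Fcer1g, the signalling chain of Fc receptors, was at 10.40 and 10.19 in miR-34a 1 and 2 against 11.17 and 10.72 in scramble 1 and 2 (−0.65, −1.19 to −0.11; adjusted p = 0.997). Itgam, an integrin of myeloid cells, differed by −0.47 (−0.98 to 0.04), while C1qa, a complement protein of tissue macrophages, differed by 0.01. Of 26 interferon response genes 0 were called (median 0.09, 4 higher and 0 lower without overlap, 15.4% against 30.0% of all probes). Ifit3, an antiviral protein, was at 9.05 and 9.13 in miR-34a 1 and 2 against 7.85 and 8.78 in scramble 1 and 2 (0.78, 0.12 to 1.43), but at 10.46 in miR-34a 3 against 12.75 in scramble 3. Of 23 inflammatory and NF-kB genes 0 were called (median −0.15). Tnfaip3, which ends NF-kB signalling, was at 7.74 and 7.67 in miR-34a 1 and 2 against 8.41 and 8.44 in scramble 1 and 2 (−0.72, −1.21 to −0.23), and at 9.42 in miR-34a 3 against 8.08 in scramble 3.

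**Figure D4:**
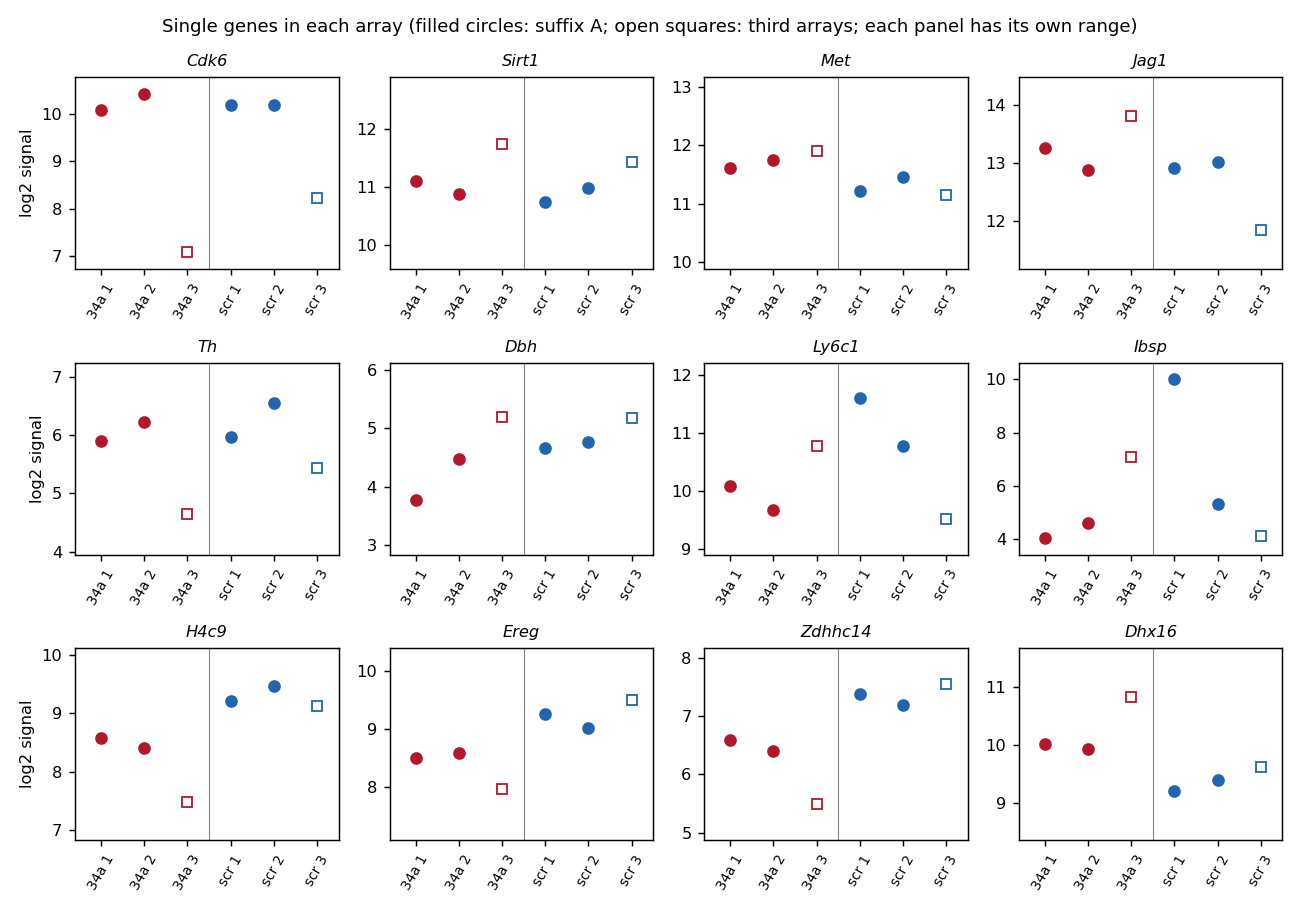
Log2 signal (y axis, its own range in each panel) of 12 genes in each of the 3 miR-34a arrays (34a, red, left) and the 3 scramble arrays (scr, blue, right). Cdk6, Sirt1, Jag1 and Th overlap between the groups, Ibsp is highest in scramble 1 (10.00) and next in miR-34a 3 (7.10), and H4c9, Ereg, Zdhhc14 and Dhx16 do not overlap.

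The other lists of cell types and metabolism in this paragraph had medians between −0.11 and 0.20 in suffix A, and 0 of their genes were called. Of 23 subunits of oxidative phosphorylation 18 were lower in the mean, with a median of −0.11. Of these subunits 0 were higher and 4 lower without overlap (17.4% against 30.0% of all probes). Sdhc, a subunit of succinate dehydrogenase, had the largest difference of them at −0.51 (−1.07 to 0.05). Medians were 0.20 for 14 T and mast cell markers, 0.08 for 14 cholinergic genes, 0.07 for 15 satellite glia markers, and 0.02 for 12 Schwann cell and 14 endothelial markers. Fibroblast markers (16 genes) had a median of −0.04, mural cell markers (12 genes) and synaptic vesicle genes (23) of −0.05 each, and immediate early genes (19) of −0.03. The lists for MHC genes (15), the integrated stress response (20), hypoxia and glycolysis (21), and cholesterol synthesis (16) lay between −0.01 and 0.01. Of the pituitary list (8 genes, median 0.03) 1 stood above the floor, and 2 erythroid genes were measured.

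The largest differences in suffix A were falls, and most rested on 1 scramble array. An unadjusted p under 0.05 in limma and at least a 2-fold size together held for 16 higher (0.0817%) and 39 lower probes (0.199%). By the other measure, at least 2-fold without overlap, 54 probes differed, 15 higher and 39 lower after miR-34a. Of the 24 that stood above the floor 2 were higher and 22 lower. Leaving out scramble 1 brought 14 of these 24 under 2-fold, leaving out scramble 2 brought 7, and 2 of 24 stayed at 2-fold or more whichever array was left out. These were Fam72a, at 4.90 and 5.10 in miR-34a 1 and 2 against 6.18 and 6.04 in scramble 1 and 2, and the vomeronasal receptor Vmn1r36.

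Genes of bone mineral led these falls, and they were chosen for naming after their values were seen. Ibsp, a sialoprotein of mineralised bone, was at 4.05 and 4.61 in miR-34a 1 and 2 against 10.00 and 5.31 in scramble 1 and 2. Its difference of −3.33 (−5.63 to −1.02) became −0.98 without scramble 1. Dmp1, a matrix protein of osteocytes, was at 4.59 and 6.36 in miR-34a 1 and 2 against 10.56 and 6.42 in scramble 1 and 2 (−3.02, and −0.95 without scramble 1). Mepe, another matrix protein of osteocytes, was at 4.57 and 4.97 in miR-34a 1 and 2 against 8.50 and 5.41 in scramble 1 and 2 (−2.19, and −0.64 without scramble 1). Atp6v0d2, a proton pump subunit of osteoclasts, was at 4.94 and 5.54 in miR-34a 1 and 2 against 7.61 and 5.66 in scramble 1 and 2. Of the 4 suffix A arrays scramble 1 alone was high in each of these 4 genes. The third arrays went the other way. Ibsp was at 7.10 in miR-34a 3 against 4.11 in scramble 3, and Dmp1 at 7.19 in miR-34a 3 against 6.02 in scramble 3. Atp6v0d2 was at 6.88 in miR-34a 3 against 5.01 in scramble 3, and Mepe at 5.12 in miR-34a 3 against 4.76 in scramble 3. The bone mineral list (10 genes measured, 5 above the floor; lists of bone, osteoclast and monocyte genes were added after values were seen) had a median difference of −0.74 in suffix A, 0.41 in the third arrays with 8 higher, and −0.41 over 6 arrays. It had a median signal of 4.30 and 4.46 in miR-34a 1 and 2 against 5.84 and 4.89 in scramble 1 and 2, with Sost and Ifitm5 below the floor in all 4 arrays. The osteoclast list (10 genes measured) had medians of −0.22 in suffix A, 0.15 in the third arrays and −0.09 over 6 arrays. In both lists 0 genes were called.

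Some myeloid genes were also highest in scramble 1 among the suffix A arrays, and others were not. The monocyte list (11 genes measured) had a median difference of −1.02 in suffix A with 0 called. Of its genes 6 had an unadjusted p under 0.05 in limma, against 3.89% of all probes. The list was added after the values were seen, so this count and median cannot serve as support for a difference. Its median was −0.18 in the third arrays and −0.66 over 6 arrays. Its median signal was 5.89 and 6.33 in miR-34a 1 and 2 against 6.48 and 6.57 in scramble 1 and 2. Chil3, a secreted protein of myeloid cells, was at 8.27 and 8.17 in miR-34a 1 and 2 against 10.61 and 8.49 in scramble 1 and 2 (−1.33, and −0.27 without scramble 1). Ly6c2, a surface marker of inflammatory monocytes, was at 9.17 and 9.10 in miR-34a 1 and 2 against 11.08 and 9.47 in scramble 1 and 2 (−1.14, and −0.34 without scramble 1). S100a8, a protein of neutrophils and monocytes, was at 10.88 and 10.37 in miR-34a 1 and 2 against 12.81 and 9.81 in scramble 1 and 2, with overlap. Ly6c1, a related surface protein of endothelial and myeloid cells, was at 10.09 and 9.67 in miR-34a 1 and 2 against 11.60 and 10.77 in scramble 1 and 2 (−1.31, −1.96 to −0.65), and −0.89 without scramble 1. In the third arrays Ly6c1 was at 10.78 in miR-34a 3 against 9.52 in scramble 3. Cd200r4, a receptor of myeloid cells, was highest in scramble 2, at 4.12 and 4.11 in miR-34a 1 and 2 against 4.79 and 5.66 in scramble 1 and 2. Ccr2, the chemokine receptor of monocytes, went the other way, at 5.75 in both miR-34a 1 and 2 against 5.19 and 4.69 in scramble 1 and 2 (0.81). Among the suffix A arrays scramble 2 alone was high in Lrp11, at 9.01 in both miR-34a 1 and 2 against 9.45 and 11.07 in scramble 1 and 2, and in Cyp1a1, a detoxifying enzyme, at 7.24 and 7.44 in miR-34a 1 and 2 against 7.74 and 9.36 in scramble 1 and 2. Lrp11 was at 7.47 in miR-34a 3 against 9.31 in scramble 3, and lower without overlap over 6 arrays (−1.45, −2.73 to −0.17; limma adjusted p = 0.999). Cyp1a1 was at 11.13 in miR-34a 3 against 9.28 in scramble 3. The part of these cells in the results was not tested.

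By the smallest unadjusted p in suffix A, 12 higher and 12 lower genes were named, all at adjusted p = 0.997 in limma, and 7 of the 24 stood above the floor. The 12 higher genes were Mettl7b, Vmn2r44, Vmn1r185, Sntg2, Pcdhb19, Olfr806, Vmn1r68, Defb30, Insrr, Chst1, Cmbl and Kcnj16. Only Chst1, a sulfotransferase, and Cmbl, a hydrolase, stood above the floor. Chst1 was at 5.72 and 6.64 in miR-34a 1 and 2 against 5.01 and 4.99 in scramble 1 and 2 (1.18, 0.52 to 1.84), but at 5.54 in miR-34a 3 against 10.32 in scramble 3. The 12 lower genes were Vmn1r36, Skint7, Fam72a, Vmn1r60, Cd300a, Adam7, Alpl, Pkhd1l1, Ly6c1, Zbtb8a, Acot5 and Muc13. Cd300a, an inhibitory receptor of myeloid cells, was at 5.19 and 5.36 in miR-34a 1 and 2 against 6.19 and 6.57 in scramble 1 and 2 (−1.11, −1.63 to −0.58). Of the 24 genes 6 are olfactory or vomeronasal receptors, which serve here as a guide to the floor, and 12 went the same way between miR-34a 3 and scramble 3. Among bright genes Bhlhe40, a clock and hypoxia repressor named after its values were seen, was at 12.75 and 12.70 in miR-34a 1 and 2 against 13.58 and 13.66 in scramble 1 and 2 (−0.90, −1.38 to −0.41), and at 13.77 in miR-34a 3 against 13.47 in scramble 3.

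Over all 3 against 3 arrays 0 of 19572 probes were called (0%), with a smallest limma adjusted p of 0.999. At an unadjusted p under 0.05 limma gave 286 probes (1.46%), of which 17 were at least 2-fold higher (0.0869%) and 16 at least 2-fold lower (0.0817%). The 3 miR-34a arrays lay all above the 3 scramble arrays in 3.49% of probes and all below in 2.31%, 5.80% together. An exact permutation test of 3 against 3 could not go below p = 0.1. The median difference over all named probes was 0.04. Marker lists moved with the third arrays in this comparison, with a median of −0.99 for pan-neuronal genes and 0.89 for Schwann cell markers, against −0.05 and 0.02 in suffix A. Sensory neuron genes had a median of −0.48 over 6 arrays, synaptic vesicle genes of −0.57, nerve injury and regeneration genes of −0.33, pituitary genes of −0.82, macrophage markers of −0.31, and endothelial markers of 0.33. The median was 0.31 for miRNA machinery, −0.26 for interferon response genes, −0.02 for the Notch pathway and 0.09 for p53 targets. In none of the lists was a gene called.

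By the smallest unadjusted p over 6 arrays, 6 higher and 6 lower genes were named, and 5 of the 12 stood above the floor. H4c9, a histone H4 gene, was at 8.57, 8.41 and 7.47 in miR-34a 1 to 3 against 9.21, 9.47 and 9.13 in scramble 1 to 3. Each miR-34a array was lower than each scramble array, with a mean difference of −1.12 (−1.80 to −0.44; adjusted p = 0.999). Ereg, the EGF receptor ligand epiregulin, was at 8.50, 8.58 and 7.97 in miR-34a 1 to 3 against 9.25, 9.02 and 9.50 in scramble 1 to 3 (−0.91, −1.49 to −0.33). Dhx16, an RNA helicase of splicing, was at 10.01, 9.93 and 10.82 in miR-34a 1 to 3 against 9.20, 9.40 and 9.62 in scramble 1 to 3, higher in each (0.85, 0.27 to 1.42). Bicdl2, an adaptor of motor transport, differed by 0.88 (0.34 to 1.43) and Atxn7l2 by −0.78 (−1.24 to −0.32), both also without overlap. The others, Mettl7b, Svs1, Echdc2, Pcdhb19, Apof, Pkhd1l1 and Zmynd12, stood below the floor.

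The following genes, with some of the larger differences over 6 arrays, were chosen after their values were seen. All lay without overlap in suffix A too, which follows from choosing genes without overlap over 6 arrays and adds no support. In each, the third arrays differed by more than the suffix A means did, most of all in Crim1 and Ipw. Zdhhc14, an enzyme that adds palmitate to proteins, was at 6.60, 6.40 and 5.49 in miR-34a 1 to 3 against 7.39, 7.20 and 7.55 in scramble 1 to 3 (−1.22 over 6 arrays, −0.80 in suffix A). Sucnr1, the receptor for succinate, was at 5.60, 6.00 and 6.58 in miR-34a 1 to 3 against 4.69, 5.22 and 4.75 in scramble 1 to 3 (1.17 over 6 arrays, 0.85 in suffix A). Crim1, a membrane protein that binds BMPs, was at 12.94, 12.78 and 16.42 in miR-34a 1 to 3 against 12.58, 12.77 and 12.22 in scramble 1 to 3, so that miR-34a 3 alone was far above (1.52 over 6 arrays, 0.19 in suffix A). Ipw, an imprinted noncoding RNA, was at 13.23, 12.76 and 8.64 in miR-34a 1 to 3 against 13.42, 13.91 and 13.47 in scramble 1 to 3, with miR-34a 3 far below (−2.06 over 6 arrays, −0.67 in suffix A).

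The third arrays by themselves, 1 against 1 and with no test, share no array with the suffix A comparison. Between miR-34a 3 and scramble 3, 17.9% of probes differed by over 2-fold, and the median difference was 0.11. The 63 reported targets had a median of −0.03. Of them 54.0% were lower, against 42.6% of all named probes and 38.3% of those above the floor. Of the 63, 7 were lower without overlap in suffix A and lower again in the third arrays, against 1164 of 19572 probes (5.95%). Another 7 were higher in both, against 1473 probes (7.53%). Each time, 7 of 63 is a larger share than that of all probes. These counts carry no test, and 0 of the 63 were called in limma in either comparison (smallest adjusted p over all probes 0.997 and 0.999). Pan-neuronal genes had a median of −2.75 and Schwann cell markers of 2.64 between the same 2 arrays. Of the targets, Syt1, a calcium sensor of synaptic vesicles, was lowest at −3.32 and Lef1, a transcription factor of Wnt signalling, highest at 2.72. In suffix A these were −0.23 and −0.19. Both reported targets and marker lists therefore covered a wider range in the third arrays than in suffix A, and for this pair of arrays the miRNA, the suffix and the make-up of the culture cannot be told apart.

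**Figure D5:**
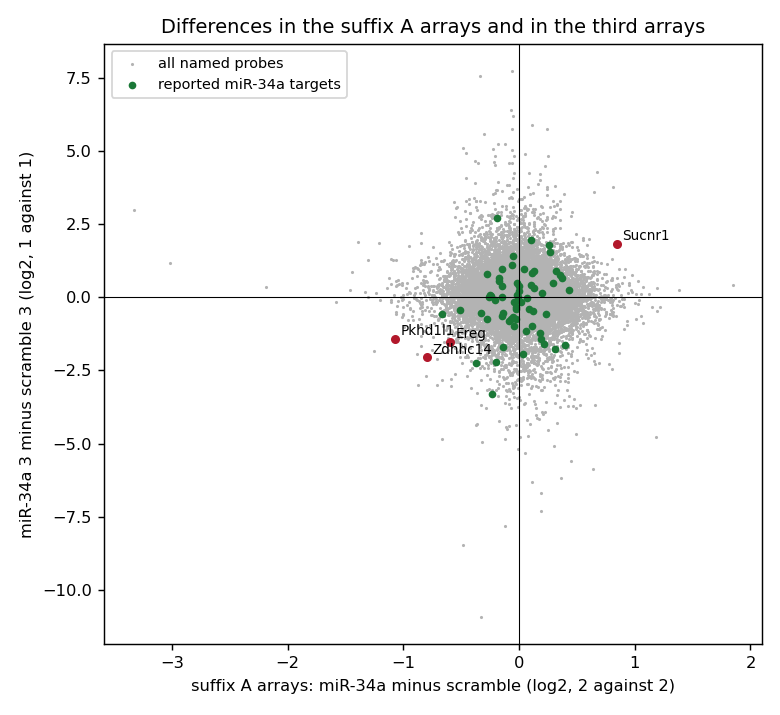
Difference between miR-34a 3 and scramble 3 (y axis, log2, 1 against 1) against the difference between miR-34a and scramble in the suffix A arrays (x axis, log2, 2 against 2) for 19572 named probes (grey) and 63 reported miR-34a targets (green). Red points are 4 genes named in the comparison of 3 against 3 arrays; the targets lie around 0 on both axes, within −3.32 and 2.72 on the y axis and −0.67 and 0.43 on the x axis.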

How the data were processed

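The data are Clariom S Mouse arrays of total RNA, hybridised as biotin-labelled cDNA. The authors deposited log2 signals, and the submitters' processing notes name Transcriptome Analysis Console 4.0 and RMA, the robust multi-array average. RMA gives all arrays a common distribution, so a change in total signal is lost. A platform table paired 19572 of 22206 probes with 1 symbol, and 2634 were unnamed.

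limma 3.58.1 in R 4.3.3 (lmFit, eBayes, two-sided) was fitted to the 4 suffix A arrays (2 residual and 8.76 prior degrees of freedom), and to 12 arrays in 4 groups for 3 against 3. A probe was called where its p, adjusted after Benjamini and Hochberg over 19572 probes, was under 0.05. Intervals are limma's 95% intervals. The floor, 4.94, is the 95th percentile of 1414 olfactory and vomeronasal receptor probes in the suffix A arrays. Symbols with several probes (55) take the brightest in lists. The number of arrays limits the precision. The script was tested on simulated data.

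Named were, by rule, genes without overlap between groups that passed the threshold or, failing that, had the smallest p (12 each way in suffix A, 6 in 3 against 3, placeholder symbols excluded), the 2 largest differences without overlap per list, and Cdk6, Sirt1, Met, Notch1, Jag1, Ccnd1 (not analysed here), Axl, Csf1r, Th and Dbh. Only some of the genes that the rule picked per list are given in the text. Other single genes were picked with their values in view. The members and lists were chosen with earlier results of these data known. Seed sites were not searched.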

Additional observations from a re-analysis of the deposited data

How the results depend on the processing

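The count of called genes was 0 in both comparisons and stayed 0 under quantile normalization again, median centring, brighter probes only, a prior with a trend, a robust prior, no moderation, array weights, a spread shared over 12 arrays (suffix A), only the 6 arrays compared, and the suffix as a fixed or random block (3 against 3). Counting probes at least 2-fold apart with an unadjusted p under 0.05 gave 55 genes in suffix A (16 higher, 39 lower) and 33 in 3 against 3 (17 higher, 16 lower). Leaving out 1 array at a time gave 0 to 0 called, with 456 to 1083 probes at an unadjusted p under 0.05 in suffix A and 201 to 530 in 3 against 3. A replicate block also called 0 in both comparisons. It used the number in the title, except that scramble 3, numbered 1 there, was taken as 3. Same-numbered suffix A arrays deviated together with a correlation of 0.0229 across genes, and with only 2 pairs the numbers were not taken as a pairing. Differences near 0 changed sign for some named targets, and the cause was not tested. Over 3 against 3 arrays Cdk6 (−0.34) became 0.088 and Notch1 (−0.15) 0.026 with array weights, and with the suffix as a fixed block Notch1 became 0.014 and Axl (0.22) −0.042. Leaving out 1 array at a time in suffix A gave −0.11 to 0.23 for Cdk6, −0.345 to 0.295 for Notch1, −0.08 to 0.29 for Jag1 and −0.50 to 0.085 for Th. In 3 against 3 it gave −1.0 to 0.72 for Cdk6, −0.058 to 0.38 for Sirt1, −0.40 to 0.027 for Notch1, −0.44 to 0.57 for Axl, −1.12 to 1.78 for Csf1r and −0.72 to 0.072 for Th. Counted over each list and setting, 441 list medians stayed in place and 34 moved in suffix A. In 3 against 3, 600 stayed and 12 moved. A median was taken as moved if it shifted by at least the spread of the list's median signal among arrays of a group. Values below the floor understate differences.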
